A study of Capra hircus with 6 samples.

Results

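The cytosolic ribosomal protein genes code for the proteins of the ribosomes that translate nuclear mRNA. They were chosen by symbol: names of the form RPL, RPS or RPLP followed by a number, with an optional A, X or L suffix, and RPSA, leaving out the RPS6K kinases. The rule found 80 genes among the 24779 in the count table, 48 of the large subunit and 32 of the small subunit. RNA of peripheral blood mononuclear cells, a mixture of T and B lymphocytes, natural killer cells and monocytes, was sequenced from goat kids (Capra hircus). The kids of 3 libraries were fed replacer milk (replacer milk 1, 2 and 3) and those of the other 3 were fed doe's milk (doe milk 1, 2 and 3), and the design asks which genes differ between the feeds. The labels call the libraries of a group biological replicates, and give neither the age, sex or breed of the kids nor the length of the feeding.

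Each ribosome holds a single copy of most of its proteins, with the stalk proteins as the main exception, so the genes are transcribed at high and coordinated levels. Their mRNAs begin with a run of pyrimidines, the 5′ TOP motif, through which the mTORC1 kinase sets their translation as a group. In blood, resting lymphocytes carry a large part of their mRNA as ribosomal protein transcripts, and activated lymphocytes make more ribosomes before they divide.

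The 6 libraries fell into 2 kinds that cut across the feeds. In replacer milk 1, doe milk 1 and doe milk 2, with totals of 48063350 to 57204363 counts, blood cell transcripts led the counts, and these are called transcript libraries here. In replacer milk 2 and 3 and doe milk 3, with 25023210 to 27129143 counts, counts followed the genomic span of genes, introns included, with a Spearman correlation across genes of 0.893 to 0.896. They are called span libraries and are shown apart. Which part of their counts came from spliced mRNA, unspliced RNA or genomic DNA was not tested. In the transcript libraries the T cell, B cell and monocyte markers of the labelled cells were present, and none of their listed genes in the table was at 0. Replacer milk 2 and 3 were nearly alike. Their chi-square per degree of freedom, which is near 1 where counts differ by sampling noise alone, was 2.81 over all genes and 2.06 over the ribosomal protein genes, against 363 and 368 over all genes for the pairs with doe milk 3. They thus differed by little more than sampling noise. The labels give them as separate samples and they were kept as such, but whether they share a source was not tested. The feed comparison within the transcript libraries therefore sets a single replacer-milk library against 2 doe-milk libraries, and its p-values assume that replacer milk varies as doe milk does. In bulk RNA, fewer cells of a type and less RNA per cell cannot be told apart.

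Ribosomal protein genes took a slightly smaller part of the counts in the replacer-milk transcript library than in both doe-milk ones. Their counts summed to 15.1% of all counts in replacer milk 1 (95% Wilson interval 15.105 to 15.125), against 16.2% in doe milk 1 (16.156 to 16.176) and 15.5% in doe milk 2 (15.441 to 15.46). The intervals cover counting error only, and the 2 doe-milk libraries differed from each other by more than replacer milk 1 differed from doe milk 2. The large subunit took 8.13% in replacer milk 1, against 8.57% and 8.34% in doe milk 1 and 2. The small subunit took 6.99% in replacer milk 1, against 7.59% and 7.11% in doe milk 1 and 2. Counts of the large subunit were 1.16 times those of the small subunit in replacer milk 1, against 1.13 and 1.17 times in doe milk 1 and 2, so that replacer milk 1 lay between the doe-milk libraries. These sums have no length correction, since transcript lengths were not available for these files.

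**Figure D1:**
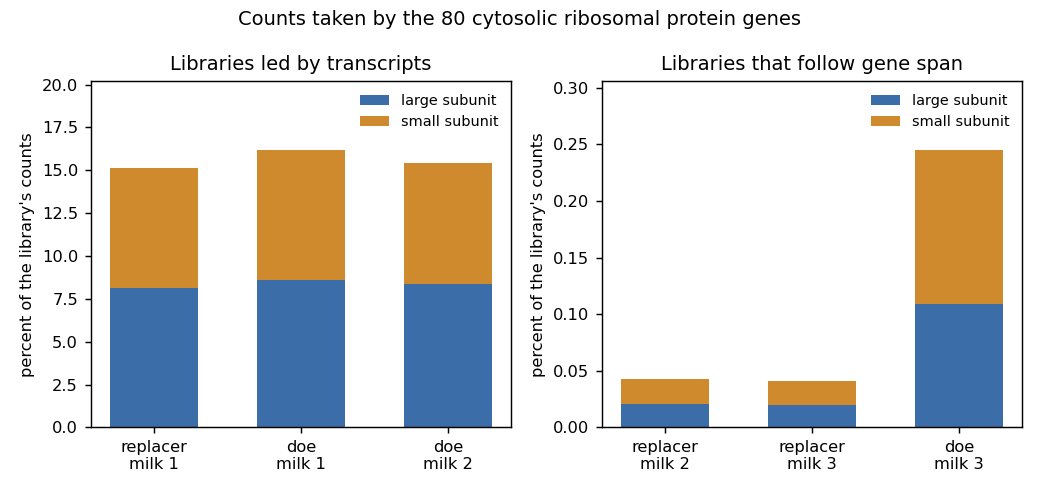
Percent of each library's counts taken by large subunit (blue) and small subunit (orange) ribosomal protein genes, with the transcript libraries on the left and the span libraries on the right, on separate axes that both start at 0. The 3 transcript libraries stand at 15.1% to 16.2%, the span libraries under 0.25%.

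No single ribosomal protein gene passed the test, while most of them lay a little lower in replacer milk 1. Of the 80 genes, 79 had enough counts to be tested. RPL10L was the exception, with no counts in replacer milk 1 or doe milk 1. After TMM scaling, which levels the libraries over the bulk of their genes, 0 of the 79 passed an adjusted p of 0.05 in edgeR's quasi-likelihood test (replacer milk 1 against doe milk 1 and 2), where 3 of 17356 genes did (0.0173%). An unadjusted p below 0.05 was reached by 2 members, RPL24 among them, where 5.35% of all genes tested reached it. DESeq2 and limma voom also called 0 members, where they called 148 and 0 of the 17356 genes. Each had 2 members at an unadjusted p below 0.05, where 774 and 898 of all genes were.

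The fitted difference was small and of like size in both subunits. The median log2 fold change was −0.19 over the 47 large subunit genes tested and −0.21 over the 32 small subunit genes, against −0.01 over all genes tested. The fold change was negative for 42 of 47 and 28 of 32 genes, 70 in all, where 50.6% of all genes tested were negative. Replacer milk 1 lay below both doe-milk libraries for 61 of the 79 genes, where 33.2% of all genes did, and above both for 2 genes, RPS2 and RPS9, where 34.4% did. All genes were measured in the same 3 libraries, so their number adds no replicates of the feed.

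The count depends in part on the scaling. With library totals only, 47 of 79 lay below both doe-milk libraries (23.8% of all genes) and 11 above both (46.9%). That scaling moved the median of all genes to 0.11. Relative to the median of all genes, the median of the members was −0.19 under both scalings. A change of scaling moves all genes nearly alike, so this value could hardly differ between them. In the same libraries the neutrophil markers, which are not mononuclear cells, summed to 325 CPM (a gene's counts over the library total, on a common scale) in replacer milk 1, against 862 and 475 CPM in doe milk 1 and 2, with 7 of 9 genes negative. Erythroid markers summed to 617 CPM in replacer milk 1, against 1621 and 1800 CPM in doe milk 1 and 2, with 2 of 3 tested genes negative. HBBC, a beta-type globin, held nearly all of that sum, and HBM was at 0 in replacer milk 1 and doe milk 1. Platelet markers summed to 781 CPM in replacer milk 1, against 656 and 965 CPM in doe milk 1 and 2, with 5 of 6 genes negative. T cell markers summed to 1983 CPM in replacer milk 1, against 1920 and 1628 CPM in doe milk 1 and 2. Of their 9 genes 3 were negative. B cell markers summed to 2566 CPM, against 2283 and 2179 CPM, with 3 of 8 genes negative. Monocyte markers summed to 686 CPM, against 529 and 540 CPM, with 2 of 5 negative. Natural killer cell markers summed to 316 CPM, against 258 and 420 CPM, with 4 of 5 negative. The part of all these cell types in the ribosomal protein levels was not tested.

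**Figure D2:**
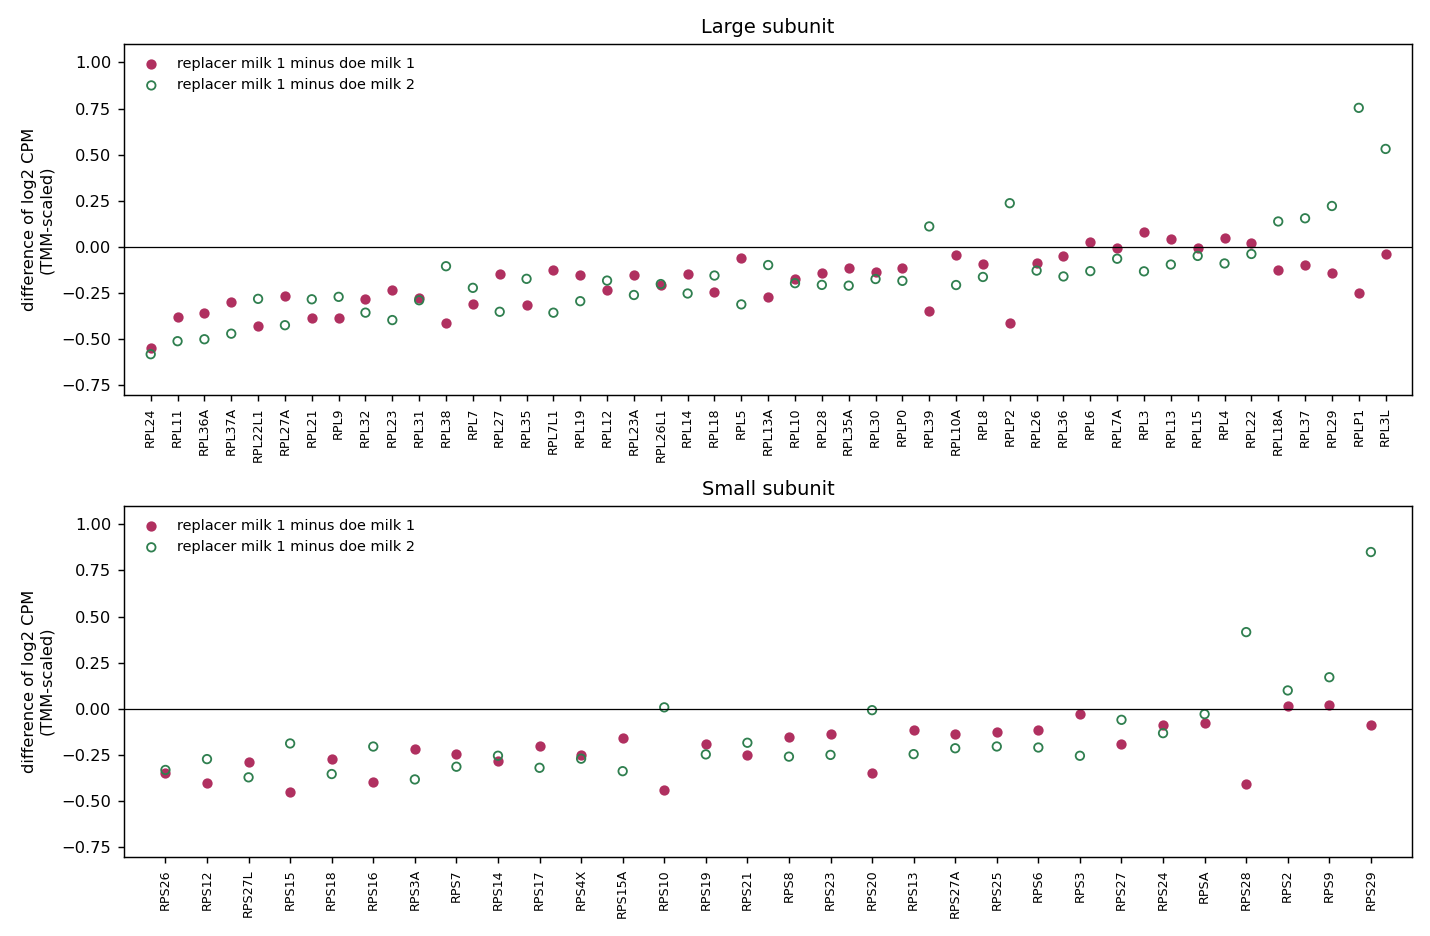
TMM-scaled log2 CPM of replacer milk 1 minus that of doe milk 1 (filled) and of doe milk 2 (open) for the tested ribosomal protein genes reported here, ordered by the fitted log2 fold change. Both points lie below 0 for most genes and above 0 for RPS2 and RPS9, and RPLP1 and RPS29 have wide gaps between their points.

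Among large subunit genes, RPL24 had the most negative fold change. RPL24, which lies at the interface of the subunits, had 895 CPM in replacer milk 1, against 1215 and 1234 CPM in doe milk 1 and 2. Its doe-milk libraries were close to each other and replacer milk 1 lay below both (log2 fold change −0.56, SE 0.19, edgeR adjusted p = 0.835). RPL11, which with RPL5 binds 5S rRNA and can hold the p53 regulator MDM2, had 1569 CPM in replacer milk 1, against 1897 and 2059 CPM in doe milk 1 and 2 (−0.45, SE 0.20, edgeR adjusted p = 0.956). Its partner RPL5 had 1946 CPM in replacer milk 1, against 1885 and 2225 CPM, so that on the CPM scale replacer milk 1 lay between the doe-milk libraries. After TMM scaling RPL5 lay below both in replacer milk 1 (−0.19, SE 0.21). RPL36A had 491 CPM in replacer milk 1, against 585 and 640 CPM in doe milk 1 and 2 (−0.43, SE 0.20). At the other end of the large subunit stood RPL29, a small basic protein, at 1182 CPM in replacer milk 1 against 1211 and 934 CPM in doe milk 1 and 2 (log2 fold change 0.03, SE 0.22), the stalk gene RPLP1 and the paralog RPL3L, both described below with their libraries.

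Among small subunit genes, RPS26 and RPS12 were near the low end. RPS26, which lines the channel where mRNA leaves the ribosome, had 1413 CPM in replacer milk 1, against 1673 and 1638 CPM in doe milk 1 and 2 (log2 fold change −0.34, SE 0.19, edgeR adjusted p = 0.979). RPS12 had 3506 CPM in replacer milk 1, against 4309 and 3902 CPM in doe milk 1 and 2 (−0.34, SE 0.19). Both genes were below both doe-milk libraries on the CPM scale as well. RPS9 went the other way, with 2404 CPM in replacer milk 1 against 2206 and 1968 CPM in doe milk 1 and 2 (0.09, SE 0.19). It and RPS2, at 3657 CPM in replacer milk 1 against 3362 and 3145 CPM in doe milk 1 and 2, lie near the channel where mRNA enters.

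For RPS6 and RPSA, genes with other known roles, the transcript libraries lay close together. RPS6, the protein that S6 kinases phosphorylate downstream of mTORC1, had 1788 CPM in replacer milk 1, against 1797 and 1905 CPM in doe milk 1 and 2. RPSA, a small subunit protein also known as a laminin receptor, had 1364 CPM in replacer milk 1, against 1338 and 1282 CPM in doe milk 1 and 2. RPSA thus lay slightly above both on the CPM scale and slightly below both after TMM scaling. RPS4X, the X-linked copy of its protein, had 1734 CPM in replacer milk 1, against 1921 and 1927 CPM in doe milk 1 and 2. For RPS4X replacer milk 1 lay below both on either scale (log2 fold change −0.26, SE 0.19).

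The largest differences among ribosomal protein genes were between the 2 doe-milk libraries, not between the feeds. The stalk recruits elongation factors to the ribosome, with RPLP0 as its base and RPLP1 and RPLP2 as its arms. RPLP1 had 4552 CPM in replacer milk 1, against 5024 and 2488 CPM in doe milk 1 and 2. RPLP2 had 1388 CPM in replacer milk 1, against 1719 and 1085 CPM in doe milk 1 and 2. In both, doe milk 2 was the low library and replacer milk 1 lay between the doe-milk libraries. RPLP0 did not share this, at 3525 CPM in replacer milk 1 against 3544 and 3690 CPM in doe milk 1 and 2.

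A like gap was seen in the small subunit. RPS29, a zinc-binding protein, had 2870 CPM in replacer milk 1, against 2833 and 1468 CPM in doe milk 1 and 2. RPS28 had 1366 CPM in replacer milk 1, against 1681 and 943 CPM in doe milk 1 and 2. In these 4 genes, picked for this gap, doe milk 1 exceeded doe milk 2 by 0.66 to 1.01 in log2 CPM. Their fitted fold changes had wide errors, with 0.17 (SE 0.49) for RPLP1 and 0.31 (SE 0.44) for RPS29. Without doe milk 2 both were negative, at −0.26 and −0.09.

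In most of the other genes the doe-milk libraries were closer to each other. The median absolute difference between doe milk 1 and 2 was 0.12 after TMM scaling over the 79 genes, against 0.28 over all genes tested. The difference between the doe-milk libraries exceeded the fitted feed difference in 27 of the 79 ribosomal protein genes, where 52.8% of all genes tested did so. Over the 78 members with at least 1 CPM in each transcript library, the SD of the log2 CPM ratio among genes was 0.15 for replacer milk 1 against doe milk 1, 0.25 for replacer milk 1 against doe milk 2, and 0.27 for doe milk 1 against doe milk 2. In relative proportions of ribosomal protein transcripts, replacer milk 1 was thus nearer to doe milk 1 than the 2 doe-milk libraries were to each other. For 1384 other genes of at least 100 CPM the same SDs were 0.36, 0.35 and 0.30, so that this order was not seen there.

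**Figure D3:**
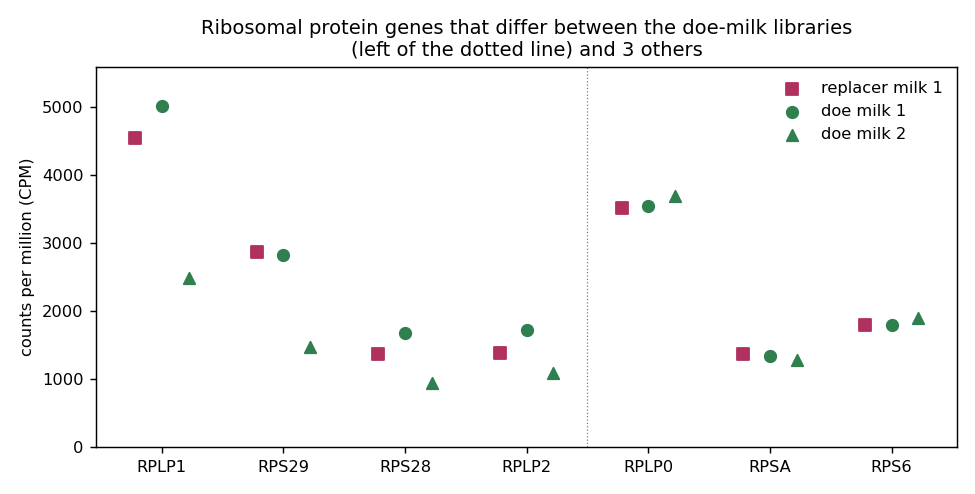
CPM of 4 ribosomal protein genes with a wide gap between the doe-milk libraries and of RPLP0, RPSA and RPS6, in replacer milk 1 (squares), doe milk 1 (circles) and doe milk 2 (triangles). For RPLP1, RPS29, RPS28 and RPLP2 doe milk 2 is the lowest point, and for the other 3 genes the points lie close together.

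Some ribosomal proteins have a variant copy, or paralog, that can take their place in the ribosome. RPL22L1 is the paralog of RPL22, which T cell development in mice requires. RPL22L1 had 284 CPM in replacer milk 1, against 355 and 318 CPM in doe milk 1 and 2 (log2 fold change −0.36, SE 0.20, edgeR adjusted p = 0.979), while RPL22 had 991 CPM, against 907 and 938 CPM. RPL22L1 thus made up 22.3% of the counts of the pair in replacer milk 1, against 28.1% and 25.3% in doe milk 1 and 2, a ratio that was not tested. RPS27L, a p53 target in human cells, had 49.2 CPM in replacer milk 1, against 56.0 and 58.7 CPM in doe milk 1 and 2, and its parent RPS27 had 1957 CPM, against 2075 and 1879 CPM.

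The remaining paralogs within the rule were scarce in the transcript libraries. RPL7L1, a nucleolar protein of large subunit assembly, had 36.1 CPM in replacer milk 1, against 36.6 and 42.6 CPM in doe milk 1 and 2. RPL26L1 had 16.9 CPM in replacer milk 1, against 18.1 and 17.9 CPM in doe milk 1 and 2. RPL3L, the striated muscle form of RPL3 in mouse and human, had 0.347 CPM in replacer milk 1, against 0.333 and 0.210 CPM in doe milk 1 and 2 (log2 fold change 0.25, SE 0.81). RPL10L, the testis form of RPL10 in mouse and human, had 0 counts in replacer milk 1, which allows up to 0.0578 CPM, 0 counts in doe milk 1, which allows up to 0.0624 CPM, and 0.0350 CPM in doe milk 2. Ribosomal protein genes have many near-identical processed copies in mammalian genomes, so that reads can be shared or lost between a gene and its copies.

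Ribosomal proteins whose symbols fall outside the rule had similar values. FAU, a fusion that yields a small subunit protein, had 1419 CPM in replacer milk 1, against 1701 and 1146 CPM in doe milk 1 and 2, with doe milk 2 again low. RACK1, a scaffold on the small subunit, had 1979 CPM in replacer milk 1, against 1921 and 1930 CPM in doe milk 1 and 2. RPL36AL, the paralog of RPL36A, had 661 CPM in replacer milk 1, against 724 and 777 CPM in doe milk 1 and 2. It was not scarce, with 57.4% of the counts of the pair in replacer milk 1, against 55.3% and 54.8% in doe milk 1 and 2.

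In 4 lists of other genes of translation, 0 passed the test either, where 0.0173% of all genes tested did. Of 77 mitochondrial ribosomal protein genes, which serve the ribosomes inside mitochondria, 0 passed and 61 were negative (median log2 fold change −0.16). Of all genes tested, 50.6% were negative. Replacer milk 1 lay below both doe-milk libraries for 41 of the 77 and above both for 10, where 33.2% and 34.4% of all genes did. MRPS33 had 28.7 CPM in replacer milk 1, against 46.7 and 44.9 CPM in doe milk 1 and 2 (−0.79, SE 0.22, edgeR adjusted p = 0.708). Of 40 genes of ribosome assembly and rRNA synthesis, 0 passed and 30 were negative (median −0.17). For 26 of the 40 replacer milk 1 lay below both doe-milk libraries, and for 6 above both. EIF6, which keeps the new large subunit from joining the small one, had 112 CPM in replacer milk 1, against 142 and 131 CPM in doe milk 1 and 2 (−0.39, SE 0.20).

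Of 20 translation factors and other genes with 5′ TOP mRNAs tested, 12 were negative and 8 positive (median −0.02), where 50.6% of all genes tested were negative, and 0 passed. Replacer milk 1 lay below both doe-milk libraries for 8 of the 20 and above both for 5, where 33.2% and 34.4% of all genes did. NACA, a chaperone of new proteins on the ribosome, had 678 CPM in replacer milk 1, against 932 and 841 CPM in doe milk 1 and 2 (−0.50, SE 0.20). PABPC1, the poly(A)-binding protein, had 1470 CPM in replacer milk 1, against 947 and 1112 CPM in doe milk 1 and 2 (0.40, SE 0.20). Of 19 genes of mTORC1 and the S6 kinases, 0 passed. In this list 8 were negative and 11 positive (median 0.07), against the same 50.6% negative of all genes. EIF4EBP1, the translation inhibitor that mTORC1 switches off, had 66.9 CPM in replacer milk 1, against 96.1 and 83.8 CPM in doe milk 1 and 2 (−0.54, SE 0.21, edgeR adjusted p = 0.918).

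**Figure D4:**
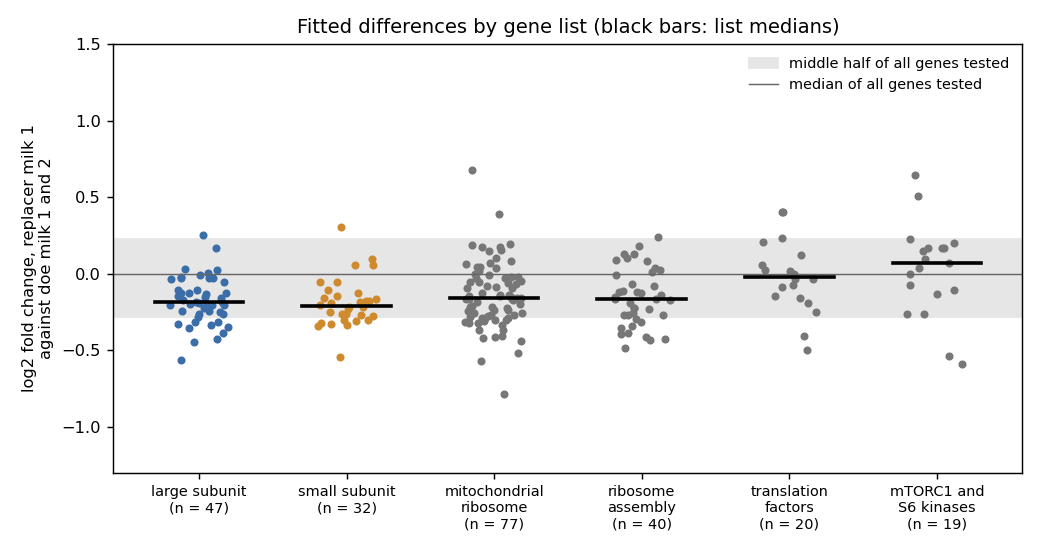
Fitted log2 fold change of replacer milk 1 against doe milk 1 and 2 for the genes of 6 lists (points) with the list medians (black bars). The medians of both ribosomal subunits, at −0.19 and −0.21, lie within the band between the quartiles of all genes tested (grey, −0.29 to 0.23).

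In the span libraries the ribosomal protein genes took only a small part of the counts. They took 0.0424% of the counts in replacer milk 2 (95% Wilson interval 0.04163 to 0.043179), 0.0411% in replacer milk 3 (0.040325 to 0.041862) and 0.245% in doe milk 3 (0.24284 to 0.24671). The median gene had 2.14 and 2.15 CPM in replacer milk 2 and 3, and 7.19 CPM in doe milk 3. Per kb of the gene span listed in the ARS1.2 assembly, the members stood at 0.981 and 1.01 times the median of 19144 other protein-coding genes in replacer milk 2 and 3, and at 2.74 times in doe milk 3. In the transcript libraries the same ratio was 2121 in replacer milk 1, against 2484 and 2400 in doe milk 1 and 2. In replacer milk 2 and 3 the typical ribosomal protein gene was thus counted like any other gene of its span.

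The highest member per kb in replacer milk 2 and 3 was RPS27A, which codes for ubiquitin fused to a small subunit protein. RPS27A had 133 and 125 CPM in replacer milk 2 and 3, and 98.8 CPM in doe milk 3. That was 83.3, 77.9 and 52.1 times the median of other genes per kb. In replacer milk 2 and 3 it alone of the 80 members was above 10 times, where 1.61% and 1.58% of other genes were. As a share of the members this was no more than among other genes. The polyubiquitin gene UBB, which is no member, was high in all 3 span libraries as well, at 2586 and 2358 times the median per kb in replacer milk 2 and 3, and at 1128 times in doe milk 3. RPL36AL, outside the rule, was also above 10 times in replacer milk 2 and 3, at 27.1 and 21.8 times, but at 0.877 times in doe milk 3. UBB and RPL36AL were picked with their values in view.

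Doe milk 3 differed from the other span libraries in an uneven way. It lay above both replacer milk 2 and 3 in CPM for 66 of the 80 members, where 57.4% of other protein-coding genes did. It exceeded 10 times their mean for 24 members, 10 of the large and 14 of the small subunit, where 2.17% of other genes did. RPS26 had 0.516 and 0.300 CPM in replacer milk 2 and 3, and 284 CPM in doe milk 3. RPL26L1 had 2.36 and 3.30 CPM in replacer milk 2 and 3, and 190 CPM in doe milk 3, which is also above the 16.9 to 18.1 CPM of the transcript libraries. RPL3L likewise had 9.81 and 8.77 CPM in replacer milk 2 and 3, and 48.2 CPM in doe milk 3.

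The members differed widely in this. RPS16 had 1.66 and 2.25 CPM in replacer milk 2 and 3, and 105 CPM in doe milk 3, whereas RPS24 was lower in doe milk 3. It had 7.26 and 8.51 CPM in replacer milk 2 and 3, and 2.48 CPM in doe milk 3. RPS29 was also lower there, with 0.848 and 0.787 CPM in replacer milk 2 and 3, and 0.240 CPM in doe milk 3. RPL11 lay slightly above both, with 4.39 and 3.26 CPM in replacer milk 2 and 3, and 5.44 CPM in doe milk 3. The genes named for doe milk 3 were picked with their values in view. With a single doe-milk span library, feed and library cannot be told apart here, and no test was made. Among the 80 members, counts followed span less closely than among all genes, with a Spearman correlation of 0.486 and 0.426 in replacer milk 2 and 3, and 0.199 in doe milk 3. This is a description over genes that share a library.

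**Figure D5:**
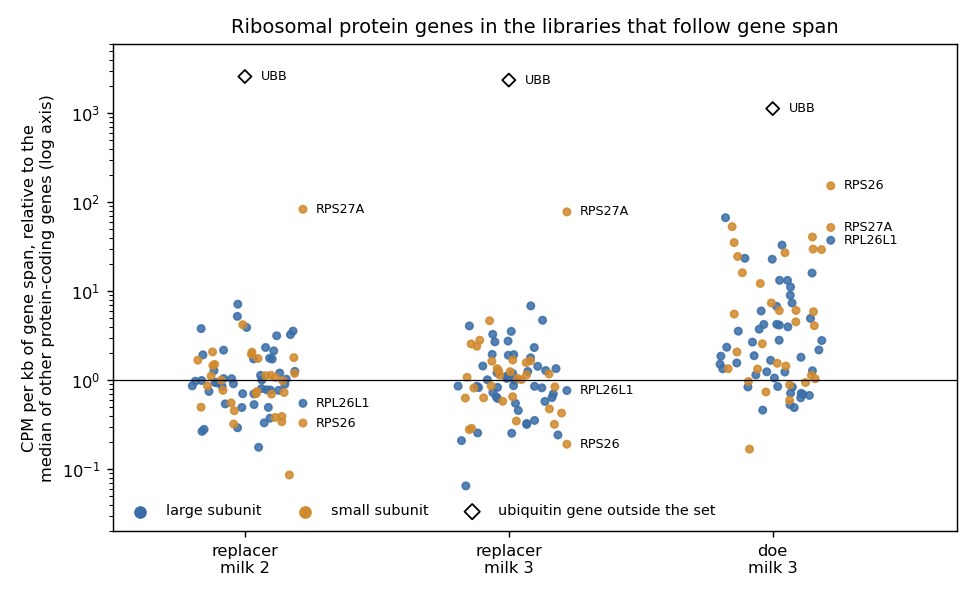
CPM per kb of gene span of the 80 ribosomal protein genes (points, by subunit) in the 3 span libraries, relative to the median of other protein-coding genes, on a log axis, with the ubiquitin gene UBB outside the set as a diamond. Most points lie around 1 in replacer milk 2 and 3, with RPS27A at 83.3 and 77.9, while in doe milk 3 they spread upward to RPS26 at 153.

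Over all 6 libraries, the comparison the labels give, no ribosomal protein gene passed. Of 80 tested, 0 had an edgeR adjusted p below 0.05 and 0 an unadjusted p below 0.05, where 0% and 0.574% of 21431 genes tested did. DESeq2 and limma voom called 0 members as well, where they called 1 and 0 of the 21431 genes. At an unadjusted p below 0.05 they had 0 and 1 members, where 451 and 48 of all genes were. In edgeR the fold change was negative for 79 of 80 (51.6% of all genes), with a median of −1.20, against −0.06 over all genes. Since 2 of the 3 replacer-milk libraries and 1 of the 3 doe-milk libraries are span libraries, feed and kind of library are mixed in these values, and the median was −10.16 without replacer milk 1 and −0.61 without replacer milk 2 or 3. With limma voom it was −4.20. Replacer milk 2 and 3 count as separate replicates here. With their counts summed as 1 library, 0 members passed and the median was −0.61. All replacer-milk libraries lay below all doe-milk libraries for 1 member, RPL26L1, where 1.08% of all genes did, and above them for 0 members, where 1.89% did. RPL26L1 had 16.9, 2.36 and 3.30 CPM in replacer milk 1, 2 and 3, against 18.1, 17.9 and 190 CPM in doe milk 1, 2 and 3 (log2 fold change −2.63, SE 1.36, edgeR adjusted p = 0.987).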

How the data were processed

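The authors deposited raw counts per gene, as whole numbers, for 6 libraries in a single table. Per the labels' protocols, TRIzol was used for RNA and the NEBNext Ultra II kit for libraries. The submitters' processing notes name featureCounts 2.0.0, STAR 2.7.10a and fastp 0.22.0, among others. Parameters, strand setting, build and annotation are not stated in these sources.

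CPM are counts over the library total. All genes were fitted with edgeR 4.0.16 in R 4.3.3 (filterByExpr, TMM, robust quasi-likelihood, Benjamini-Hochberg adjustment at 0.05, two-sided, replacer milk minus doe milk), once for the 3 transcript libraries, with a single residual degree of freedom, and once for all 6. Standard errors are the log2 fold change over the square root of F. The scaled levels used a prior count of 2. DESeq2 1.42.0 and limma 3.58.1 were alternatives. Gene spans came from the RefSeq table of ARS1.2, which held all 80 members.

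The members, gene lists and library kinds were chosen with earlier results of these data known. Named genes are the 3 lowest and 3 highest fold changes of each subunit, genes of set roles, paralogs with most of their parents, and up to 3 of each list. Some genes that the rule names are not reported here. A part of the rule that needed coding lengths was not used. Nothing in the labels says that the library numbers pair samples, and these fits had no block.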

Additional observations from a re-analysis of the deposited data

How the results depend on the processing

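The number of ribosomal protein genes called stayed at 0 under every alternative run for the transcript libraries and for all 6. In the transcript libraries, the median fold change was −0.083 with library totals only (−0.076 for the large and −0.10 for the small subunit), −0.20 without each doe-milk library in turn, and otherwise −0.21 to −0.19. Members below both doe-milk libraries numbered 47 to 61 under other scalings and filters. Over all genes tested the share was 23.8% with library totals only and 33.2% with TMM. Without doe milk 1 and without doe milk 2, 66 and 72 members lay below the remaining one. The median log2 fold change of all genes was then 0.006 and −0.003, and their share below was not counted. All genes called were 3 with edgeR, 148 with DESeq2, 0 with voom, 90 with no filter and 0 where every library had to reach 1 CPM. The genes of extreme fold change reported here kept their direction in 115 combinations of gene and setting. Most settings other than leaving out a doe-milk library hardly moved these fold changes, so this count says little on stability. The 4 reversals were all without doe milk 2. RPL29 was −0.15 without doe milk 2 and 0.22 without doe milk 1, RPLP1 −0.26 and 0.75, RPL3L −0.048 and 0.54, and RPS29 −0.095 and 0.85. The cause was not tested.

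Over all 6 libraries the median ran from −10.16 to −0.61 with each library left out. The lowest value, without replacer milk 1, leaves only span libraries in that group. In that edgeR fit 59 of 80 members had an unadjusted p below 0.05, where 3431 of 21723 genes tested did. With replacer milk 2 and 3 summed as 1, chosen after seeing the data, the median was −0.61, with library kind as a term −0.77, and with limma voom −4.20. With the replicate number as a replicate block, 0 members were called and the median was −2.44. The deviations of same-numbered samples correlated at 0.894, −0.887 and 0.927. Libraries numbered 1 are both transcript libraries, those numbered 3 both span libraries, and those numbered 2 one of each kind, so these correlations say nothing on pairing.

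Without the 20 most counted other genes, the share of counts was 16.9% in replacer milk 1, against 18.3% and 17.6% in doe milk 1 and 2. With FAU, RACK1 and RPL36AL added, a set trimmed after seeing the data, it was 0.0449% and 0.0431% in replacer milk 2 and 3, against 0.251% in doe milk 3. The fuller set planned for this is not reported here. Without mitochondrially encoded genes doe milk 2 stood at 15.98%. Members of at least 2 kb stood at 2.62 times the median per kb in doe milk 3. Low counts limit the span libraries, where the median member of replacer milk 2 had 2.14 CPM.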
